A study of Chlorocebus sabaeus with 18 samples.

Results

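The 9 genes described here code for DCP2, the enzyme that removes the cap of mRNA, and for 8 proteins that act with it: DCP1A, DCP1B, EDC3, EDC4, PATL1, DDX6, LSM14A and XRN1. They were taken by symbol from a gene-level table of 135750 transcript clusters. Each symbol had a single transcript cluster there, and all 9 passed the filter on low values (a mean log2 signal above 4.14). DCP2 itself was chosen with earlier results of these data known, and the comparison that led to it is not stated. By a rank rule, CGG cells with TRA2A knockdown minus CGG cells was taken as the comparison that picked DCP2 out. Its difference there is given as a description with no p-value. The other members were listed for their function, also with earlier results of these data known.

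An mRNA carries a methylated guanosine cap at its start, which protects it and recruits the translation machinery. In the main route of cytoplasmic decay the poly(A) tail is shortened first, by the CCR4-NOT and PAN2-PAN3 deadenylases, after which DCP2 cuts off the cap and the exonuclease XRN1 degrades the body of the RNA from its exposed end. DCP2 is a weak enzyme on its own: DCP1, the EDC proteins, PATL1 and the LSM ring raise its activity or hold it on the RNA, and many of these proteins gather in cytoplasmic granules called P-bodies.

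RNA of COS-7 cells, a fibroblast-like kidney line of the green monkey, was hybridised to human Clariom D arrays, with 18 arrays in 6 groups of 3. CGG cells with TRA2A knockdown and CGG cells with TRA2A overexpression carried the FMR1 leader with an expansion of 60 CGG repeats together with the change in TRA2A. TRA2A knockdown cells, TRA2A overexpression cells (GFP stands in their titles) and CGG cells had one of these changes each, and control cells had no treatment named. The labels give no control siRNA, no construct lacking the repeat, and no word on whether separate cultures lie behind the arrays, so p-values measure the spread between these arrays. The conditions of the control arrays read COS-7, COS-6 and COS-5 while their cell line reads COS-7, and CGG array 1 and knockdown array 3 were rehybridised.

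TRA2A, a splicing regulator, followed its labels. Its log2 signal was 11.63, 11.96 and 11.88 in CGG cells with knockdown and 11.40, 12.04 and 11.20 in knockdown cells. It was 17.16, 17.11 and 17.22 in CGG cells with overexpression and 18.70, 18.39 and 18.50 in overexpression cells, against 14.49, 14.51 and 14.71 in CGG cells and 14.65, 14.68 and 14.54 in control cells. No array of a changed group overlapped CGG or control cells. The difference was -3.08 ± 0.19 (SE) for knockdown minus control cells and -2.75 ± 0.19 for CGG cells with knockdown minus CGG cells (limma, adjusted p = 2.42e-08 and 5.2e-07). The overexpression rise was smaller with the repeat, at 2.59 ± 0.19 over CGG cells against 3.91 ± 0.19 over control cells. The first rise minus the second was -1.31 ± 0.27 (limma, adjusted p = 0.0472), so TRA2A was not raised equally with and without the repeat. All differences here are on the log2 scale of the deposited signal, and a call is an adjusted p under 0.05 over all 67854 transcript clusters tested.

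The arrays had medians between 4.14 and 4.20 and correlated pairwise at 0.974 to 0.986. On the first principal component the 3 control arrays lay at -79.5 to -30.7 and the other 15 arrays at -10.7 to 36.2, so every comparison with control cells rests on arrays that stand apart. Probes differ in brightness, so markers of cell types were read only against the filter and between groups. It was passed by 5 of 5 mesenchymal markers, by 4 of 5 kidney tubule markers (PAX2, at 3.60, was below it), and by 3, 4 and 3 of 5 markers of leukocytes, endothelium and neurons. In knockdown minus control cells the kidney marker PAX8 fell by 1.09 ± 0.22 (limma, adjusted p = 0.0153), 1 of 4 tested in its list. In overexpression minus control cells the mesenchymal marker VIM rose by 0.68 ± 0.16 (adjusted p = 0.0438), 1 of 5. No other marker was called in any of the 9 comparisons. The mean of the mesenchymal list was 14.1 to 14.5 in knockdown cells and 13.9 to 14.2 in overexpression cells, against 13.8 to 14.2 in control cells. That of the kidney list was 7.56 to 7.69 and 7.72 to 7.94 in the same groups, against 7.64 to 8.14 in control cells. The part of these shifts in the comparisons with control cells was not tested. In bulk RNA, fewer cells of a type and less RNA per cell cannot be told apart.

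DCP2 was higher in both groups with TRA2A knocked down. Its log2 signal was 10.53, 10.69 and 10.46 in CGG cells with knockdown and 10.77, 10.60 and 10.73 in knockdown cells. It was 9.12, 9.03 and 9.69 in CGG cells with overexpression, 9.27, 9.39 and 9.35 in overexpression cells, 9.16, 9.12 and 9.06 in CGG cells, and 8.87, 8.58 and 9.34 in control cells. All 6 arrays with TRA2A knocked down lay above all 12 arrays without it. The share of all transcript clusters with such a split was not counted. The arrays of CGG cells with knockdown and of CGG cells belong to the comparison taken as having picked DCP2 out. Knockdown arrays lay above control arrays without overlap, as they did for 9.05% of all tested transcript clusters. Ordered by mean, knockdown cells (10.70 ± 0.09, SD, n = 3) came before CGG cells with knockdown (10.56 ± 0.12), and their arrays overlapped. A gap of 1.22 without overlap followed, down to overexpression cells at 9.34 ± 0.06. Below it came CGG cells with overexpression (9.28 ± 0.36), CGG cells (9.11 ± 0.05) and control cells (8.93 ± 0.38), and neighbouring groups overlapped at each step.

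**Figure D1:**
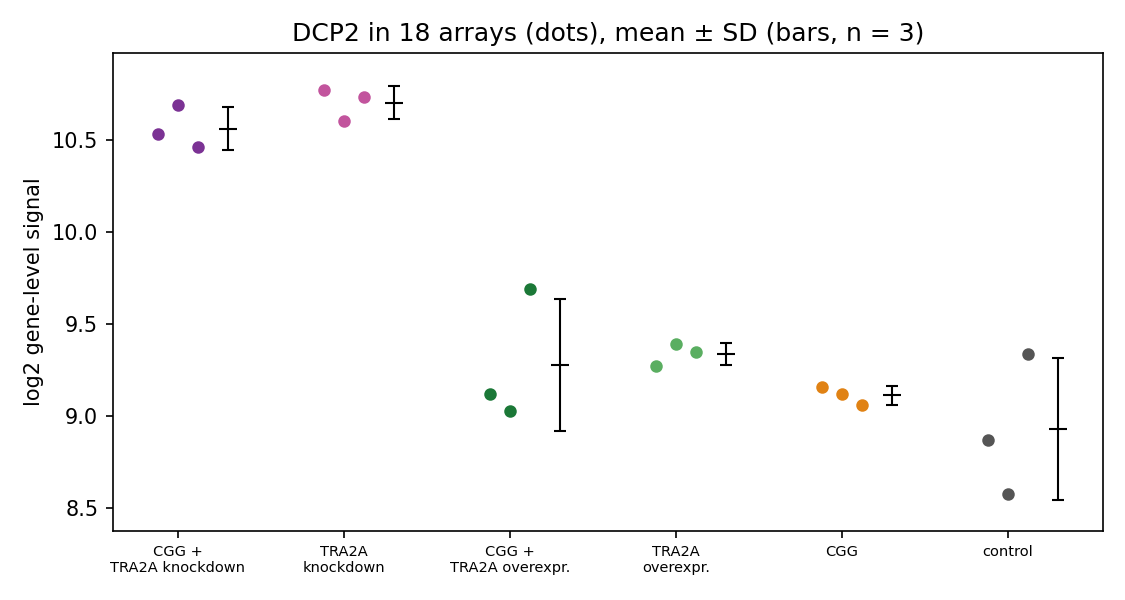
Log2 gene-level signal of DCP2 in each of 18 arrays (dots) by group, with the mean and SD beside each group (bars, n = 3). The 6 arrays with TRA2A knocked down lie between 10.46 and 10.77, and the other 12 between 8.58 and 9.69.

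In knockdown cells DCP2 rose by 1.77 ± 0.20 (SE) over control cells, a fold of 3.41 with a 95% interval of the log2 difference from 1.36 to 2.18 (limma, adjusted p = 5.78e-05). Neither group was part of the comparison taken as having picked DCP2 out, although that comparison used other cells with the same knockdown. Whether this rise also led to the choice of DCP2 is not known, so its p-value may not be independent of the choice. The same holds for the p-value against overexpression cells that follows. The rise over control cells was the 35th largest of 653 called rises without overlap among genes with a single symbol. Set against overexpression cells, which leaves out the control arrays, the rise in knockdown cells was 1.36 ± 0.20 (limma, adjusted p = 0.00174). In the comparison taken as having picked DCP2 out, CGG cells with knockdown minus CGG cells, the difference was 1.45 ± 0.20, the 4th of 12 such rises. By that rank rule a place among the first 10 counted as picked out: YOD1 at the 10th place had 1.08 ± 0.21 and ZNF43 at the 11th had 0.96 ± 0.18. Against CGG cells with overexpression, the same CGG cells with knockdown differed by 1.28 ± 0.20, also given without a p-value because it shares those arrays.

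With TRA2A raised, or with the repeat alone, DCP2 was not called. Overexpression minus control cells gave 0.41 ± 0.20, with a 95% interval from -0.01 to 0.82 (limma, adjusted p = 0.349). CGG cells with overexpression minus CGG cells gave 0.17 ± 0.20, from -0.25 to 0.58 (adjusted p = 0.857). The repeat alone, CGG minus control cells, gave 0.18 ± 0.20, from -0.23 to 0.60 (adjusted p = 0.760). The arrays overlapped in all 3 of these comparisons. The knockdown difference in CGG cells minus that in cells without the repeat was -0.32 ± 0.28, with a 95% interval from -0.91 to 0.26. The same quantity for overexpression was -0.24 ± 0.28 (adjusted p = 0.802).

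Among the 9 members DCP2 was the one called in knockdown minus control cells, where 1.55% of all tested transcript clusters were called. It was also the one called in knockdown minus overexpression cells, which uses the same knockdown arrays, where 0.405% of all were. CGG cells with knockdown minus CGG cells called DCP2 alone of the 9, beside 0.147% of all. CGG cells with knockdown minus CGG cells with overexpression also called DCP2 alone, beside 0.379% of all. DCP2 was taken as selected on the arrays of CGG cells with knockdown, and it was chosen with earlier results of these data known. The counts in all these knockdown comparisons are therefore descriptions. No member was called in overexpression minus control cells (1.25% of all), in CGG cells with overexpression minus CGG cells (0.0383%) or in CGG minus control cells (0.669%). None was called in the difference between the 2 knockdown comparisons (0.175%) or between the 2 overexpression comparisons (0.246%). At an unadjusted p under 0.05 limma counted 3 of 9 members in knockdown minus control cells, where 13.1% of all tested transcript clusters were under it. These were DCP2, EDC3 and XRN1. In knockdown minus overexpression cells it counted 1, DCP2 (7.88% of all), and in overexpression minus control cells 0 (14.8%). It counted 2 in CGG cells with overexpression minus CGG cells (9.01% of all) and 2 in CGG minus control cells (12.7%). In the knockdown and overexpression differences of differences it counted 3 and 2, beside 10.5% and 10.7% of all.

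**Figure D2:**
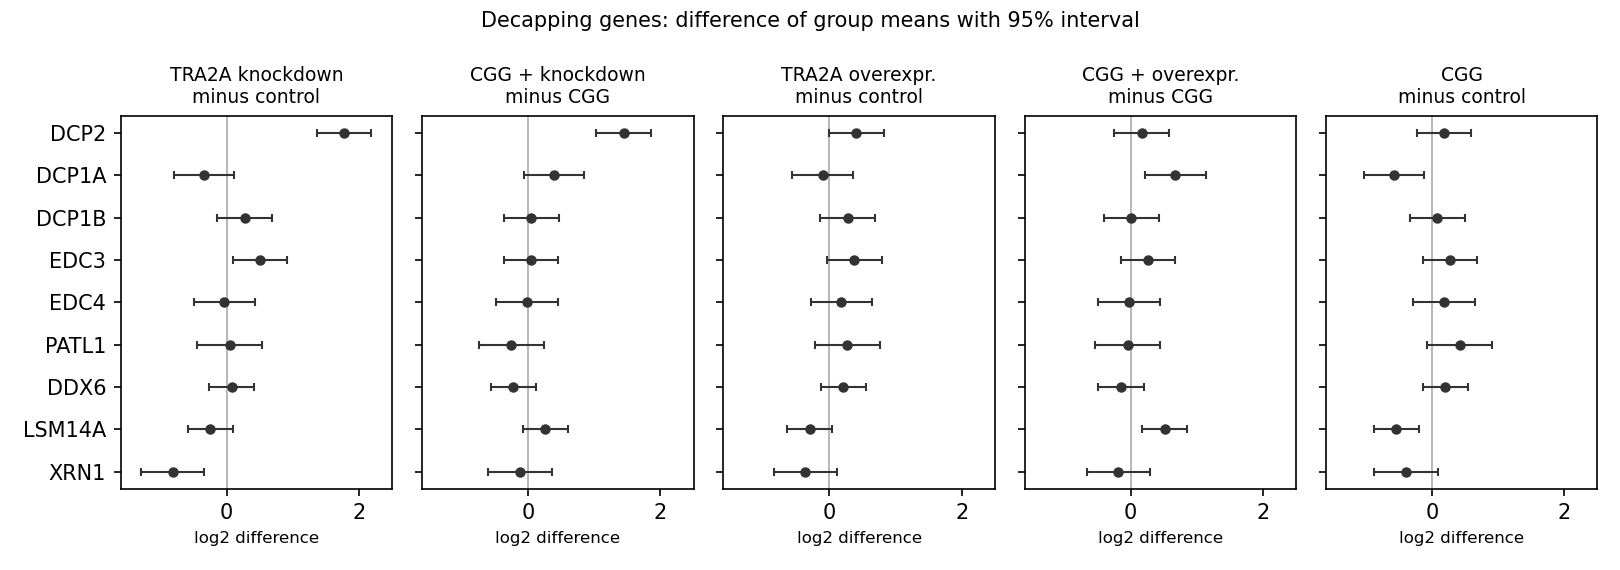
Log2 difference of group means with its 95% interval for the 9 decapping genes (rows) in 5 comparisons (panels). DCP2 lies at 1.77 and 1.45 in the knockdown panels; the other 8 genes lie between -0.82 and 0.51 in the first panel and between -0.25 and 0.39 in the second.

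The median difference over the 9 members was 0.05 in knockdown minus control cells, beside 0.01 over all tested transcript clusters. In CGG cells with knockdown minus CGG cells it was 0.04, beside 0.03 over all. The members other than DCP2 ranged from -0.82 to 0.51 in the first and from -0.25 to 0.39 in the second comparison. DCP2 stood at the far end of the distribution of all differences in both.

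**Figure D3:**
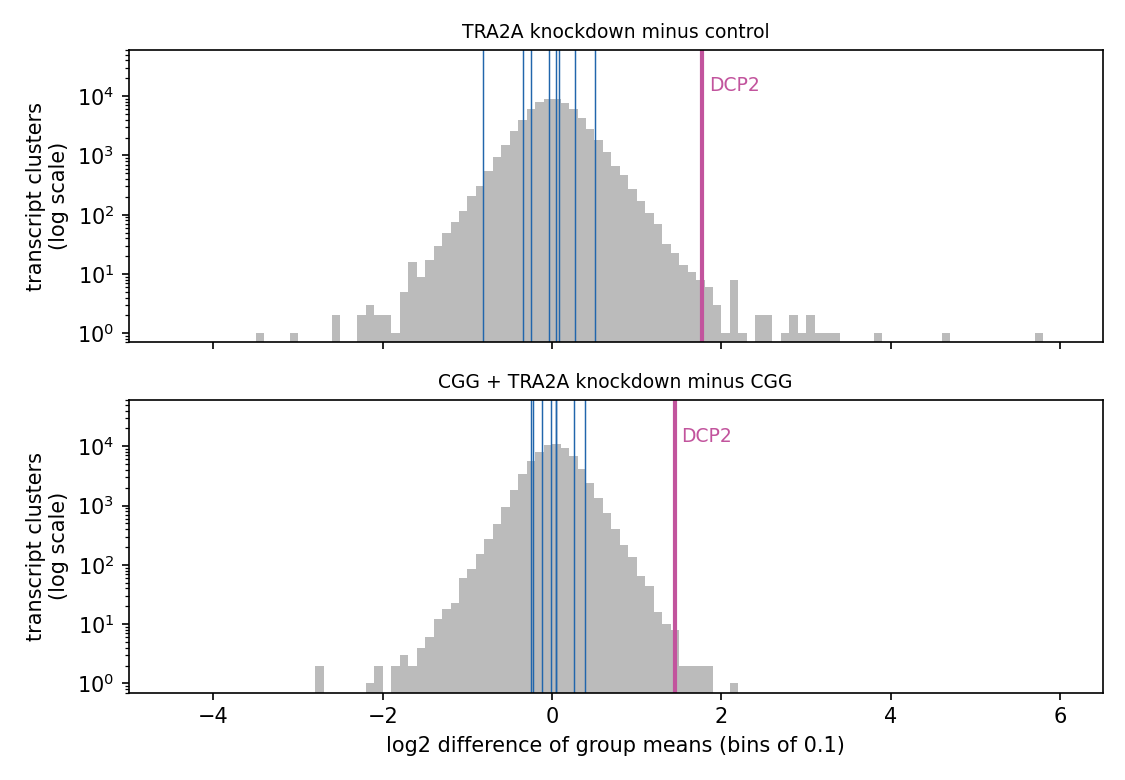
Histograms of log2 differences over all 67854 tested transcript clusters (bins of 0.1, counts on a log scale) in TRA2A knockdown minus control cells and in CGG cells with knockdown minus CGG cells. The thick line is DCP2, at 1.77 and 1.45, and the thin lines are the other 8 decapping genes, between -0.82 and 0.51 in the first panel and between -0.25 and 0.39 in the second.

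Of the direct partners of the enzyme, DCP1A and DCP1B are the 2 vertebrate forms of DCP1, which binds DCP2 and activates it. DCP1B had 11.15, 11.04 and 10.79 in knockdown cells and 10.40, 10.56 and 11.20 in control cells. The groups overlapped, and the difference of 0.27 ± 0.20 was not called (limma, adjusted p = 0.621). Its group means spanned 0.28 over all 6 groups, from 10.72 in control cells to 11.00 in overexpression cells, little more than the pooled SD of 0.23 within groups. DCP1A had a mean signal of 4.44 over all arrays, close to the filter at 4.14, and no exon-level values of it were used here. It was 4.79, 4.85 and 4.54 in CGG cells with overexpression, against 3.72, 4.06 and 4.37 in CGG cells. These arrays did not overlap, as 9.24% of all tested transcript clusters were higher without overlap, and the difference of 0.68 ± 0.22 was not called (adjusted p = 0.335). CGG minus control cells gave -0.57 ± 0.22 for DCP1A, with overlapping arrays (adjusted p = 0.270).

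EDC3 and EDC4 are enhancers of decapping: EDC3 binds DCP2 and helps P-bodies form, and EDC4 is a large scaffold that joins DCP1 to DCP2 in animals. EDC3 had 12.33, 11.74 and 12.44 in knockdown cells and 11.26, 11.96 and 11.77 in control cells. Knockdown array 2 lay among the control arrays, and the difference of 0.51 ± 0.20 was not called (limma, adjusted p = 0.253). EDC4 varied little. Its group means ran from 6.19 to 6.41, a span of 0.22 beside a pooled SD of 0.27, and its arrays overlapped between the groups in all 7 pairwise comparisons.

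PATL1 links deadenylation to decapping, DDX6 is a helicase that represses translation and promotes decapping, and LSM14A is a DDX6 partner needed for P-bodies. PATL1 was 11.82, 11.75 and 11.49 in CGG cells with knockdown, against 11.85, 11.83 and 12.14 in CGG cells. DDX6 was 13.05, 13.09 and 13.22 in CGG cells with knockdown, against 13.24, 13.48 and 13.31 in CGG cells. Both genes lay below CGG cells without overlap, as 4.73% of all tested transcript clusters did, with differences of only -0.25 ± 0.23 and -0.22 ± 0.16 (limma, adjusted p = 0.892 and 0.849).

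LSM14A showed its lowest values in CGG cells. It was 12.66, 12.95 and 12.83 in CGG cells with overexpression and 12.15, 12.19 and 12.55 in CGG cells, and it was 12.86, 12.64 and 13.00 in control cells. CGG cells did not overlap either of the other groups. In CGG minus control cells 7% of all tested transcript clusters were lower without overlap. In CGG cells with overexpression minus CGG cells 9.24% were higher without overlap. CGG minus control cells gave -0.54 ± 0.16 and CGG cells with overexpression minus CGG cells gave 0.52 ± 0.16 (limma, adjusted p = 0.152 and 0.323), 2 differences that share the CGG arrays. The overexpression difference with the repeat minus that without was 0.81 ± 0.23 for LSM14A (unadjusted p = 0.00222, adjusted p = 0.170). None of these passed the threshold.

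XRN1, which acts after DCP2, had the most negative difference of the 9 genes in knockdown minus control cells. It was 9.46, 9.84 and 9.97 in knockdown cells, against 10.81, 10.18 and 10.73 in control cells, with no overlap, as 6.12% of all tested transcript clusters were lower. The difference was -0.82 ± 0.23, 1.76-fold lower, with a 95% interval from -1.29 to -0.34 (limma, unadjusted p = 0.00205, adjusted p = 0.0871). XRN1 missed the threshold in this fit, and its adjusted p over the alternatives lay between 0.0311 and 0.332; without control array 2 it was 0.0431. Against overexpression cells, at 10.09, 10.16 and 10.39, the knockdown arrays were lower again without overlap (6.86% of all were), at -0.46 ± 0.23 (limma, adjusted p = 0.664). With the repeat present XRN1 was 9.95, 9.87 and 10.37 in CGG cells with knockdown and 9.93, 10.15 and 10.47 in CGG cells, a difference of -0.12 ± 0.23 with overlapping arrays. The difference between these knockdown comparisons, 0.70 ± 0.32, was not called (adjusted p = 0.458).

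The exon-level table resolved DCP2 into 25 features, 17 exon regions and 8 exon-exon junctions. In knockdown cells 24 of the 25 were higher than in control cells by more than 1 and without overlap of the arrays; 10.1% of all exon-level features were higher without overlap. The median difference over the 25 was 1.83, with 1.72 for the regions and 2.13 for the junctions, and the range was -0.20 to 2.94. In CGG cells with knockdown minus CGG cells 24 were higher, 20 of them by more than 1, and 22 did not overlap (6.65% of the whole table). The median there was 1.27 and the range -0.14 to 1.94. The features are parts of the same RNA measured in the same arrays and are not replicates of one another.

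The exception in knockdown cells was the exon region PSR0500157089. Its mean was 9.81 ± 0.27 (SD, n = 3) in CGG cells with knockdown, 9.64 ± 0.32 in knockdown cells, 9.85 ± 0.18 in CGG cells with overexpression, 9.77 ± 0.27 in overexpression cells, 9.65 ± 0.32 in CGG cells and 9.84 ± 0.06 in control cells. The groups lay within 0.21 of each other while the gene as a whole spanned 1.77. Taken relative to the gene's own value, this region was lower by -1.97 ± 0.27 in knockdown minus control cells (limma on feature minus gene, adjusted p = 0.00483 over 230888 features). It was 1 of 20 tested DCP2 features to be called there, beside 0.303% of all features. Against overexpression cells its relative difference was -1.50 ± 0.27, which was not called (limma, adjusted p = 0.105). The region's own values were flat, so both relative differences come mainly from the rise of the gene's value. Whether this human exon region reads the monkey DCP2 transcript was not tested.

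For contrast, the exon region PSR0500157101 followed the gene closely. It was 14.04 ± 0.12 (SD, n = 3) in CGG cells with knockdown and 14.13 ± 0.10 in knockdown cells, and between 12.40 and 12.44 in the other 4 groups. Its difference was 1.72 ± 0.11 in knockdown minus control cells and 1.64 ± 0.11 in CGG cells with knockdown minus CGG cells. The junction JUC0500053630 had the largest difference in knockdown minus control cells, at 2.94 ± 0.52, with means of 10.84 and 7.90. It gave 1.05 ± 0.36 in CGG cells with knockdown minus CGG cells. The junction JUC0500053632 gave 2.18 ± 0.67 in knockdown minus control cells and -0.14 ± 0.75 in CGG cells with knockdown minus CGG cells. The difference of the 2 was not tested. Its mean over all arrays, 7.29, lay below the exon-level filter of 7.46, and single arrays weigh on both values. CGG array 2 had 9.42 beside 7.12 and 7.44, and control array 2 had 4.87 beside 6.78 and 6.22.

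Without knockdown most DCP2 features overlapped between the groups, 20, 22 and 16 of the 25 in the 3 comparisons that follow. In overexpression minus control cells 5 of the 25 were higher without overlap and none lower, beside 12% of the whole table higher. Of the 25, 2 were higher and 1 lower without overlap in CGG cells with overexpression minus CGG cells (9.41% of the table higher). In CGG minus control cells 8 were higher and 1 was lower (9.13% higher), with a median of 0.42. No feature was called relative to the gene in these 3 comparisons (limma); at an unadjusted p under 0.05 there were 1, 3 and 5 of the 20 tested, beside 12.9%, 8.83% and 12.1% of all 230888 features.

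**Figure D4:**
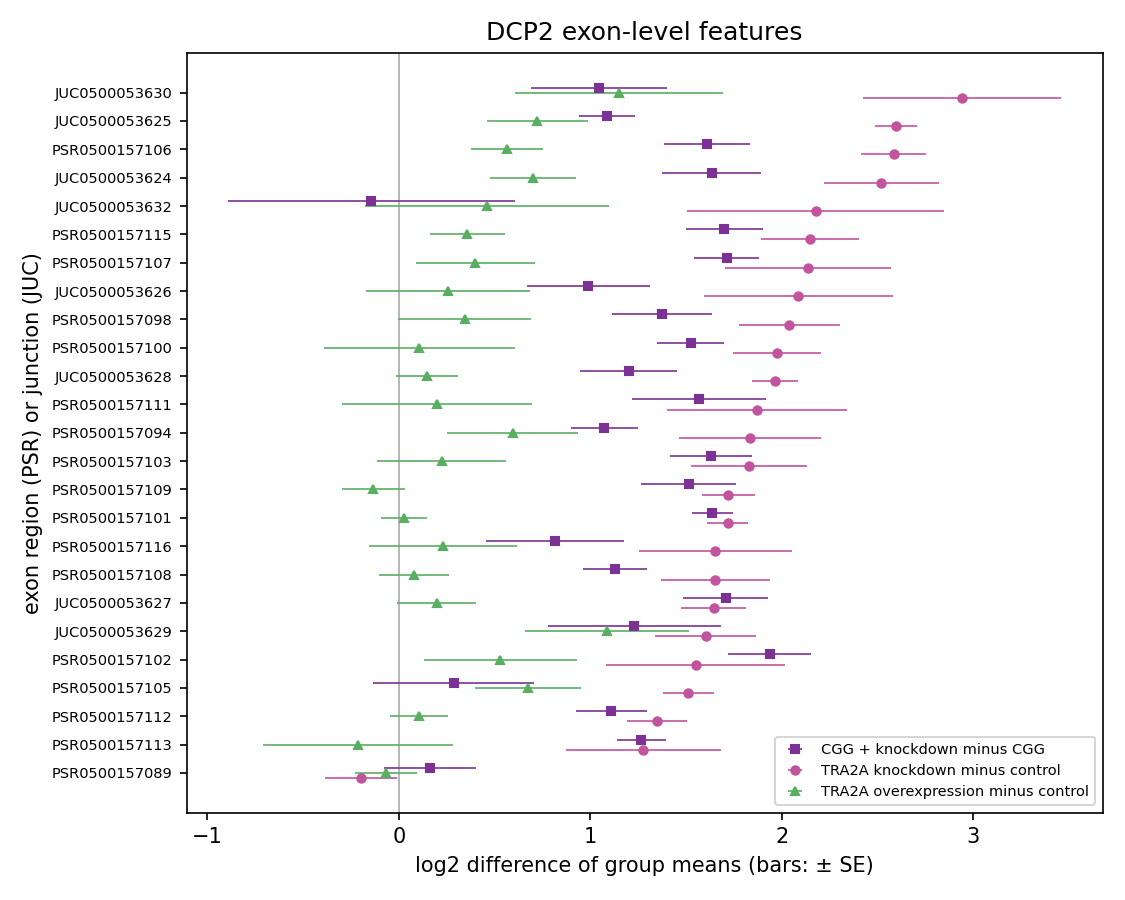
Log2 difference of group means (± SE) for the 25 exon-level features of DCP2 in CGG cells with knockdown minus CGG cells (squares), knockdown minus control cells (circles) and overexpression minus control cells (triangles). Circles lie at 1.28 or above in 24 features and at -0.20 in PSR0500157089; triangles lie between -0.21 and 1.15.

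Decapping works downstream of deadenylation and beside other decay routes, so 6 lists of such genes were read in the same fit. They name 78 genes, of which 65 were tested; the other 13 were not analysed here. In knockdown minus control cells 3 of the 65 rose and none fell, beside 1.13% and 0.42% of all tested transcript clusters. In overexpression minus control cells 2 rose, beside 0.949% of all, and in CGG minus control cells 2 rose, beside 0.504%. None of the 65 was called in CGG cells with knockdown minus CGG cells, CGG cells with overexpression minus CGG cells or knockdown minus overexpression cells. At an unadjusted p under 0.05 limma counted 7, 14 and 11 of the 65 there, beside 7.17%, 9.01% and 7.88% of all tested transcript clusters. With the variance taken from only the arrays compared, all 10 calls of list genes, interactions included, missed the threshold (adjusted p = 0.0575 to 0.185).

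The deadenylase list (13 tested) held 2 of the 3 rises in knockdown minus control cells. CNOT6 codes for a catalytic deadenylase of CCR4-NOT. It was 12.38, 12.41 and 12.29 in CGG cells with knockdown, 12.74, 12.35 and 12.76 in knockdown cells, 11.40, 11.86 and 11.56 in CGG cells and 11.17, 10.90 and 11.61 in control cells. Both knockdown groups lay above CGG and control cells without overlap. The share over all transcript clusters is given only for knockdown minus control cells. In knockdown minus control cells 9.05% of all tested transcript clusters were higher without overlap. CNOT6 rose by 1.39 ± 0.21 in knockdown minus control cells (limma, adjusted p = 0.00111). The difference was 0.75 ± 0.21 in CGG cells with knockdown minus CGG cells (adjusted p = 0.280) and 0.88 ± 0.21 in knockdown minus overexpression cells (adjusted p = 0.0828), and neither was called.

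CNOT7, the other type of catalytic subunit in that complex, had its lowest values in the knockdown groups. It was 14.75, 14.46 and 14.70 in CGG cells with knockdown and 14.78, 14.56 and 14.90 in knockdown cells. It was 15.58, 15.63 and 15.31 in CGG cells with overexpression and 15.33, 15.64 and 15.35 in overexpression cells, with CGG cells at 15.05, 15.20 and 15.10 and control cells at 15.04, 14.96 and 15.58. All knockdown arrays lay below all others, and the share of all transcript clusters with such a split was not counted. Of all tested transcript clusters, 6.12% were lower without overlap in knockdown minus control cells. In CGG cells with knockdown minus CGG cells 4.73% were. CNOT7 fell by 0.87 ± 0.18 in CGG cells with knockdown minus CGG cells with overexpression (limma, adjusted p = 0.0433), 1 of 65 list genes called there, beside 0.273% of all tested transcript clusters lower. This call was lost in 20 of 27 alternatives, with adjusted p up to 0.227. In the comparisons with CGG and control cells it gave -0.48 ± 0.18 and -0.45 ± 0.18 (adjusted p = 0.567 and 0.292).

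TOB1 recruits CCR4-NOT to mRNA tails and restrains cell growth. It was 13.67, 13.71 and 13.74 in knockdown cells, 13.58, 13.48 and 13.49 in overexpression cells and 13.81, 13.73 and 13.90 in CGG cells, against 12.45, 12.78 and 12.85 in control cells. Every array of these 3 groups lay above every control array. So did every array of CGG cells with knockdown, from 13.33 up, and of CGG cells with overexpression, from 13.46 up. In knockdown minus control cells 9.05% of all tested transcript clusters were higher without overlap, and the share is not given for the other comparisons. In knockdown, overexpression and CGG cells TOB1 rose by 1.01 ± 0.16, 0.82 ± 0.16 and 1.12 ± 0.16 over control cells (limma, adjusted p = 0.00193, 0.0164 and 0.00117). The call in overexpression minus control cells was lost in 6 of 27 alternatives, with adjusted p up to 0.153. Among them were leaving out control array 1 (adjusted p = 0.0995) and leaving out any 1 overexpression array (0.054, 0.0644 and 0.0637). These comparisons share the control arrays, which stand apart on the first principal component, and the part of that separation in the rises was not tested. Without control cells, knockdown minus overexpression cells gave 0.19 ± 0.16 (adjusted p = 0.864) and CGG cells with knockdown minus CGG cells gave -0.29 ± 0.16 (adjusted p = 0.761).

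Of the 13 decapping activators, among them the LSM ring, none was called in knockdown minus control cells; the nearest were LSM7, a ring subunit, at 0.98 ± 0.27 and PNRC2, a decapping co-activator, at 0.59 ± 0.18 (limma, adjusted p = 0.0777 and 0.118). LSM7 gave 1.10 ± 0.27 in overexpression minus control cells (adjusted p = 0.0505). PNRC1, a nuclear co-activator related to PNRC2 that has been reported to bind the decapping complex, was highest in CGG cells. It was 8.70, 8.98 and 8.66 in CGG cells with knockdown and 9.08, 8.72 and 9.12 in CGG cells with overexpression, against 9.71, 9.49 and 9.79 in CGG cells. Control cells had 8.14, 8.41 and 8.92, and CGG cells overlapped none of these groups. In CGG cells with knockdown minus CGG cells 4.73% of all tested transcript clusters were lower without overlap. The share is not given for the other groups. PNRC1 rose by 1.17 ± 0.19 in CGG minus control cells (limma, adjusted p = 0.00401), a value that again uses the control arrays. In CGG cells with knockdown minus CGG cells it gave -0.88 ± 0.19 and in CGG cells with overexpression minus CGG cells -0.69 ± 0.19 (adjusted p = 0.0878 and 0.257), neither of them called. PNRC2 took lower values in CGG cells, with 0.72 ± 0.18 and 0.65 ± 0.18 in the same comparisons (adjusted p = 0.190 and 0.255).

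**Figure D5:**
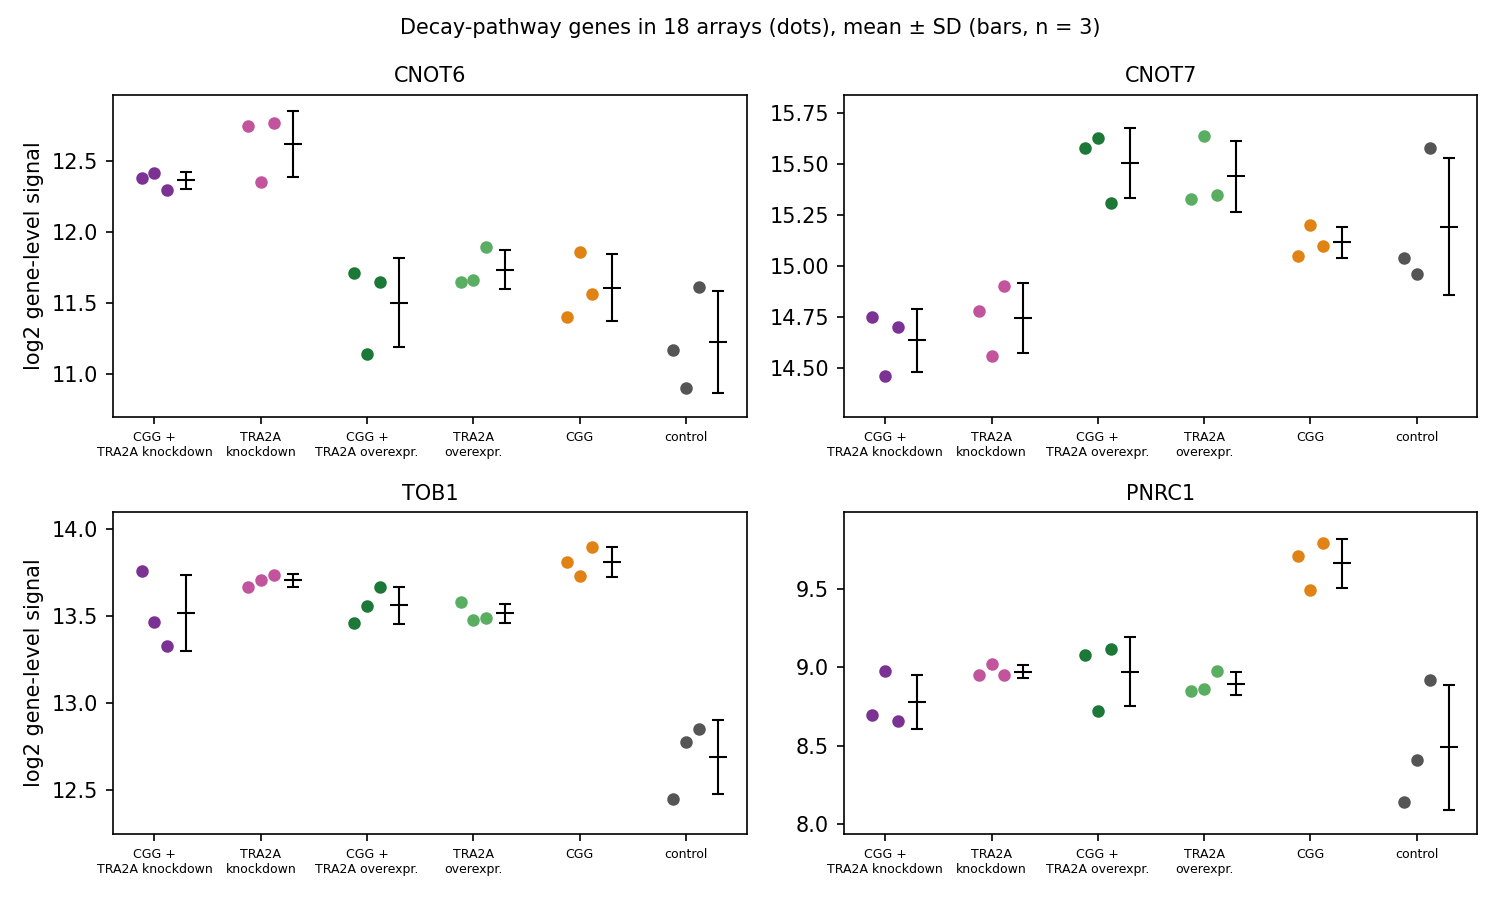
Log2 gene-level signal of the deadenylase genes CNOT6, CNOT7 and TOB1 and of the decapping co-activator PNRC1 in 18 arrays (dots) by group, with mean and SD (bars, n = 3). CNOT6 is at or above 12.29 and CNOT7 at or below 14.90 in all 6 knockdown arrays; TOB1 is at or below 12.85 in control cells, and PNRC1 is at or above 9.49 in CGG cells.

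For 2 list genes the knockdown difference was not the same with and without the repeat. PNRC1 gave -1.37 ± 0.27 and TOB1 -1.31 ± 0.23 for the knockdown difference in CGG cells minus that in cells without the repeat (limma, adjusted p = 0.0447 and 0.0203), 2 of 65 called, beside 0.13% of all tested transcript clusters lower. The PNRC1 call was lost in 21 of 27 alternatives and the TOB1 call in 8, among them leaving out control array 1 for both (adjusted p = 0.117 and 0.0679). For overexpression none of the 65 was called, and TOB1 gave -1.07 ± 0.23 (adjusted p = 0.0550); 11 of the 65 had an unadjusted p under 0.05, beside 10.7% of all tested transcript clusters.

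Other routes gave few calls. Among 8 tested RNA-binding proteins that promote decay, ZFP36, which destabilises AU-rich mRNAs, rose by 0.85 ± 0.15 in knockdown minus control cells, with means of 4.93 and 4.08 that lie near the filter (limma, adjusted p = 0.0052). Of 10 nonsense-mediated decay genes SMG8, a regulator of the SMG1 kinase, rose by 0.91 ± 0.19 in overexpression minus control cells (adjusted p = 0.0260), and MAGOH, an exon junction protein, gave -0.59 ± 0.17 in knockdown minus control cells (adjusted p = 0.101). None of the 15 exosome and SKI genes or the 6 other cap hydrolases and exonucleases was called in any comparison. The exosome subunit EXOSC5 gave 0.68 ± 0.20 and the SKI subunit SKIC3 0.58 ± 0.17 in CGG cells with overexpression minus CGG cells (adjusted p = 0.287 and 0.276). The SMG8 and ZFP36 calls were lost in 6 of 27 and 2 of 26 alternatives.

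Over the 18 arrays the genes whose log2 signal ran most like DCP2 among 20883 with a single symbol were MIGA1 (Pearson r = 0.952), CNOT6 (0.940), MKNK2 (0.928), ZBTB34 (0.924), PHLPP2 (0.922) and SSH2 (0.918). These values are descriptive: the arrays fall into groups with and without knockdown, and the genes were selected for the likeness. After each group's mean was taken out the same genes gave 0.673, 0.674, 0.799, 0.613, 0.447 and 0.712. MIGA1, a mitochondrial outer membrane protein of the fusion machinery, had means of 8.35 in CGG cells with knockdown and 8.42 in knockdown cells, against 7.46 in CGG cells and 7.38 in control cells. MKNK2, a kinase of the cap-binding protein EIF4E, had 7.42 and 7.82 in the same knockdown groups, against 6.47 in CGG cells and 5.66 in control cells. Both were highest in the knockdown groups, as DCP2 was. In overexpression minus control cells MIGA1 gave 0.50 ± 0.16 and MKNK2 1.01 ± 0.26, against 0.41 ± 0.20 for DCP2. In CGG minus control cells MIGA1 gave 0.08 ± 0.16 and MKNK2 0.81 ± 0.26, against 0.18 ± 0.20 for DCP2. None of these was called. Of the other members DCP1B came nearest to DCP2, with r = 0.415, and XRN1 was the most negative, with r = -0.449. After group means were taken out XRN1 gave 0.442 and DCP1B 0.720. PATL1 and EDC4, with r of only -0.05 and 0.05 over all arrays, gave 0.704 and 0.61. DCP1A, EDC3, DDX6 and LSM14A gave 0.142, 0.009, 0.176 and 0.279. Such values were thus not limited to the genes that ran most like DCP2.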

How the data were processed

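The authors deposited log2 signal values per transcript cluster and, in a second file, per exon region and junction, made with signal space transformation and robust multi-array averaging (SST-RMA) per the file headers. RMA and the Transcriptome Analysis Console are named per the submitters' processing notes, without versions, and 100 ng of total RNA went onto each array per the labels. The genome build is not given in the sources used here, and the array count limits the precision. Probes are human and the cells are monkey, so groups were compared within a transcript cluster or feature and levels were not set between genes.

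Gene symbols came from GEO's platform annotation: 25413 tested transcript clusters had 1 symbol, 874 several and 41567 none. R 4.3.3, limma 3.58.1 and the data.table package (1.17.8) were used to fit 1 model of the 6 group means over 18 arrays (12 residual degrees of freedom), two-sided, with Benjamini-Hochberg adjustment over the 67854 transcript clusters whose mean exceeded the median of such means. There were 7 pairwise comparisons and 2 interactions. Exon-level values minus the gene's value were tested likewise for 230888 features (mean above 7.46) in 18009 genes with at least 3 features. Scripts were tested on simulated data. The members and lists were chosen with earlier results of these data known. Genes named are the members, TRA2A, from each list up to 4 called genes per comparison or otherwise up to 2 with the smallest p, of which some are printed, and the 6 most like DCP2; exon features other than the extremes, and the values of listed genes in further comparisons, were chosen after their values were seen.

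Same-numbered arrays of different groups had deviations that correlated at -0.121 to 0.158 (3 of 45 pairs over 0.1), so the numbers were not taken as pairs. Alternatives were other filters, quantile normalization, other variance estimates, a replicate block, a rehybridisation covariate, a 2-fold rule, and leaving out each array; leaving out both rehybridised arrays was chosen after seeing the data. Sequences and genome positions were not used here.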

Additional observations from a re-analysis of the deposited data

Results flagged for a closer look

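PNRC1 and TOB1 are singled out because the test of the difference itself passed: their knockdown difference in CGG cells minus that in cells without the repeat was -1.37 for PNRC1 and -1.31 for TOB1 (limma, adjusted p = 0.0447 and 0.0203). For PNRC1 this combines -0.88 with the repeat and 0.48 without it, and for TOB1 -0.29 with the repeat and 1.01 without it. The second value of each pair rests on the control arrays. The PNRC1 call was lost in 21 of 27 alternatives (limma, adjusted p up to 0.143). The TOB1 call was lost in 8 of 27 (limma, adjusted p up to 0.107).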

How the results depend on the processing

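The DCP2 difference stayed positive under all 27 alternatives, at 1.60 to 1.98 in knockdown minus control cells (limma, adjusted p = 1.24e-05 to 0.0173), 1.33 to 1.41 in knockdown minus overexpression cells (adjusted p = 0.00048 to 0.0200) and 1.38 to 1.50 in CGG cells with knockdown minus CGG cells. In CGG cells with overexpression minus CGG cells it was not called and ran from -0.04 to 0.29. The count of members called in knockdown minus control cells went to 2, DCP2 and XRN1, with a filter at the 75th percentile, with quantile normalization, with the replicate block and without control replicate 2 (1 to 2 over the left-out arrays); the adjusted p of XRN1 was 0.0431, 0.0311, 0.0358 and 0.0431. The replicate block changed only 2 other calls of members and list genes, of CNOT7 in CGG cells with knockdown minus CGG cells with overexpression (adjusted p = 0.0739) and of PNRC1 in the knockdown interaction (0.0629). The count in CGG cells with knockdown minus CGG cells with overexpression was 0 with the variance from the arrays compared, and that setting ended all 10 calls of list genes (adjusted p = 0.0575 to 0.185). With the median of the gene's own features subtracted, 1 DCP2 exon feature was called in knockdown minus overexpression cells, against 0. Other counts of members did not move. Over all transcript clusters the knockdown minus control count was 1049, against 135 with the variance from the arrays compared, 1669 at the 75th percentile and 513 without control replicate 1. The overexpression minus control count was 846, against 207 without control replicate 1 and 1524 without control replicate 3; the CGG minus control count was 454, against 196 and 702. The mean over several transcript clusters of a symbol could not be tried, since each member has 1.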
